A study of Mus musculus with 9 samples.

Results

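The interleukin 1 and 18 receptor family was described here through 9 genes, a list of symbols drawn up with earlier results of these data known: the receptor chains Il1r1, Il1r2, Il1rl1 and Il18r1, the co-receptor chains Il1rap and Il18rap, the soluble antagonist Il1rn, the inhibitory receptor Sigirr and the adaptor Myd88. All 9 were found among the 54146 genes of the count table, and all 9 were among the 15521 that passed the filter on low counts. The cells were T follicular helper (Tfh) cells, the CD4 T cells that help B cells in germinal centres, sorted from mouse Peyer's patches by their surface CD4, CXCR5 and PD1. Libraries came from mice labelled WT/mut for TGFBR1 (replicates 6 to 10, n = 5), a receptor chain for TGF-beta, and from wild-type mice (WT, replicates 1, 3, 4 and 5, n = 4). Cells of both groups were sorted and prepared by 1 protocol. The labels do not say what the mutation is or in which cells it acts, and give no age, sex, litter or sequencing batch. They do not say that each library is a separate animal, so p-values cover the spread among libraries, which may be technical.

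IL-1 binds the receptor IL1R1, which then pairs with the accessory protein IL1RAP, and the intracellular TIR domains of the pair recruit the adaptor MYD88, IRAK kinases and TRAF6 to activate NF-κB. IL1R2 binds IL-1 but has no TIR domain and so acts as a decoy, and the receptor antagonist encoded by Il1rn occupies IL1R1 without signalling. IL-33 and IL-18 use the sister receptors IL1RL1 (with IL1RAP) and IL18R1 (with IL18RAP). In follicles, Tfh cells have been described as responsive to IL-1, and follicular regulatory T cells, which carry the same CXCR5 and PD1, as a source of IL1R2 and of the antagonist.

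Total counts lay between 29488851 and 43872732 per library. The library of WT/mut replicate 7 had 30225 genes with a count, against 17935 to 20342 in the others. Tfh identity genes were present in every library, with Cxcr5 at 1110 to 1268 CPM (counts scaled to library size) in the WT/mut and 1230 to 1380 CPM in the WT cells, and Bcl6 at 394 to 452 CPM in the WT/mut and 316 to 434 CPM in the WT cells. Of the 10 Tfh genes listed, 4 had positive and 6 negative fold changes, and 0 were called by edgeR. Ranges did not overlap for 3, all lower in WT/mut, against 4.46% of all tested genes in either direction and 2.38% lower. These 3, named after their values were seen, were the costimulatory receptor gene Icos (log2 fold change -0.52 ± 0.09, SE, edgeR adjusted p = 0.0721), the cytokine gene Il21 (-0.55 ± 0.12, edgeR adjusted p = 0.142) and the transcription factor gene Tox (-0.37 ± 0.08, edgeR adjusted p = 0.137), and their part in the values of the receptor genes was not tested. Foxp3, which marks regulatory T cells and is not removed by this sort, was at 50.4 to 103 CPM in the WT/mut and 45.5 to 77.5 CPM in the WT cells.

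The family comprised abundant and scarce members, in the same order of mean level per length in both genotypes. On a scale of CPM per kb of exon, which takes gene length into account, the decoy receptor Il1r2 had the highest mean level, 74.1 ± 7.79 in WT/mut and 110.9 ± 10.3 in WT cells (SD, n = 5 and n = 4, as for all means below). The length is that of all annotated exons together, not of the transcripts expressed, so the order depends on it. In CPM alone, Sigirr was above Il1r2 in WT/mut (192 against 141) and below it in WT cells (199 against 212). Sigirr followed at 63.1 ± 10.4 in WT/mut and 65.3 ± 11.3 in WT cells, and Myd88 at 47.7 ± 5.93 in WT/mut and 49.9 ± 8.38 in WT cells. The signalling receptor Il1r1 came next, at 9.60 ± 1.76 CPM per kb in WT/mut and 13.6 ± 2.44 in WT cells, so its level per length was well below that of its decoy in both groups. Il1rap stood at 2.81 ± 0.172 CPM per kb in WT/mut and 2.24 ± 0.475 in WT cells, and Il1rn at 2.12 ± 0.560 in WT/mut and 1.81 ± 0.473 in WT cells. Il18r1 had 0.886 ± 0.452 CPM per kb in WT/mut and 1.45 ± 0.358 in WT cells. The IL-33 receptor Il1rl1 and the IL-18 co-receptor Il18rap were at the bottom, both with means below that of Il18r1 and with libraries at or near 0. Between neighbours in this order, the ranges of Sigirr and Myd88, of Il1rap and Il1rn, of Il1rn and Il18r1, and of Il1rl1 and Il18rap overlapped in both groups, and those of Il1r2 and Sigirr overlapped in WT/mut but not in WT cells.

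Il1r2, the decoy receptor, was the family member with the smallest p. It was measured at 147, 144, 135, 120 and 160 CPM in WT/mut replicates 6 to 10, against 204, 239, 193 and 210 CPM in WT replicates 1, 3, 4 and 5. Every WT/mut library was below every WT library, which held for no other member on this scale (it held for Il1r1 too when the libraries were scaled with no filter on low counts). The group means were 141 ± 14.9 CPM in the WT/mut and 212 ± 19.6 CPM in the WT cells, a WT/mut level 0.668 times that of WT. The log2 fold change was -0.58 ± 0.10 (SE; 95% interval -0.81 to -0.35), with an unadjusted p of 0.00015 and an adjusted p of 0.0709 in edgeR's quasi-likelihood test over all 15521 genes, which misses the threshold of 0.05. DESeq2 gave the same log2 fold change of -0.58 with an adjusted p of 0.000149. Permuting the log2 CPM values over all splits gave an exact two-sided p of 0.00794, the smallest that the 126 splits of 9 libraries allow. That p largely restates the separation of the groups given above, so it is no separate support. The permutation was chosen after the data were seen. An exon of Il1r2 overlaps the span of Gm16894, a gene on the opposite strand. Because the kit does not mark strand, any reads in the overlap may be assigned to either gene. Gm16894 itself had 408 counts over the WT/mut and 457 over the WT libraries, against 23794 over the WT/mut and 32157 over the WT libraries for Il1r2.

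Il1r1, the receptor that signals, lies 99848 bases from Il1r2 on the same strand of chromosome 1. It was measured at 54.5, 67.0, 50.9, 77.9 and 55.0 CPM in WT/mut replicates 6 to 10, against 76.9, 77.5, 83.2 and 109.7 CPM in WT replicates 1, 3, 4 and 5. WT/mut replicate 9 was the only WT/mut library within the WT range, just above WT replicates 1 and 3. The means were 61.1 ± 11.2 CPM in the WT/mut and 86.8 ± 15.5 CPM in the WT cells. Its log2 fold change of -0.51 ± 0.15 (SE; 95% interval -0.85 to -0.17) had an edgeR adjusted p of 0.278, in DESeq2 0.0799, and a p of 0.0317 by exact two-sided permutation. In such bulk libraries, fewer cells of a type that carries a transcript and less of that RNA per cell cannot be told apart.

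**Figure D1:**
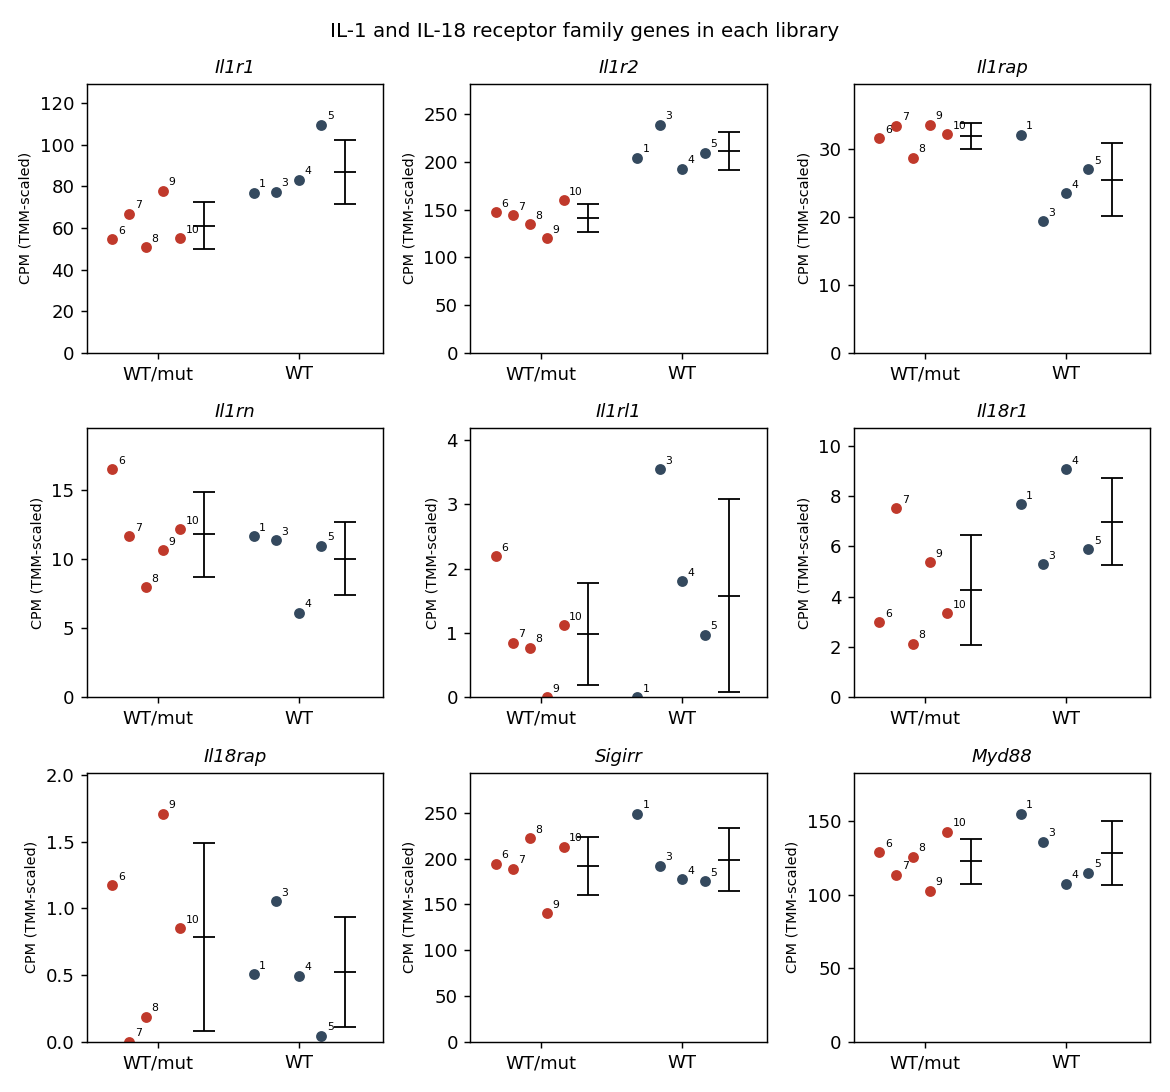
CPM values (y axis, library sizes scaled by TMM, each panel with its own scale starting at 0) of the 9 family genes in each of 5 WT/mut and 4 WT libraries; points are libraries with their replicate number, and the bars are mean ± SD. The WT/mut libraries of Il1r2 lie at 120 to 160 CPM, all under the 193 CPM of the lowest WT library, whereas the groups overlap in the other 8 panels.

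The windows of 250 bases before the annotated starts of these neighbouring receptor genes are printed so that their motifs can be compared, since both genes had lower mean levels in WT/mut. They are RefSeq sequences on GRCm38.p6, read 5′ to 3′ on the plus strand. Capitals mark CACGTG, an E-box that reads the same on both strands; the windows were also searched on both strands for CAGAC, a SMAD-binding element of the TGF-beta pathway, and for AGGTCA, a nuclear receptor half-site, and the 3 motifs did not overlap in them. Il1r1 has 2 annotated starts. The RefSeq start of Il1r2 lies inside the gene as GENCODE M21 draws it, from 40074079 to 40125231.
Il1r2, chr1:40085843-40086092: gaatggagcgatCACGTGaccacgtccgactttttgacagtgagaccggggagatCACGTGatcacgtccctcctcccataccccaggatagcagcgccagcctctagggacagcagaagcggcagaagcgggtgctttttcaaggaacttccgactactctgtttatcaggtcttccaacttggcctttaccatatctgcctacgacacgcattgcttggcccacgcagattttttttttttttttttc
Il1r1 first start, chr1:40224830-40225079: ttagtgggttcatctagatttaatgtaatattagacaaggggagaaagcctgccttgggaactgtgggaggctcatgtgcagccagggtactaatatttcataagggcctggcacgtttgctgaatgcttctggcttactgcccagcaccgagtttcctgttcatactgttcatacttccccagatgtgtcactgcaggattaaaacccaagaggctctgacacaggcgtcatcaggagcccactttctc
Il1r1 second start, chr1:40266336-40266585: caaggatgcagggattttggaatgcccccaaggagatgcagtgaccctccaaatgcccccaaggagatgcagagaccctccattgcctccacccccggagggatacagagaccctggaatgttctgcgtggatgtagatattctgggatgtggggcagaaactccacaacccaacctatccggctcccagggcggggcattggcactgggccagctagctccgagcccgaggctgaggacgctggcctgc
The Il1r2 window holds 2 E-boxes, beginning 238 and 195 bases before the start, and neither CAGAC nor AGGTCA. Neither Il1r1 window holds any of the 3 motifs. Of 32851 RefSeq windows of the same length, 6.02% hold at least 1 CACGTG and 0.429% hold 2 or more. CAGAC is found in 42.2% of these windows and AGGTCA in 14.0%. Promoter windows were matched for 8 of the 9 members, 14 windows in all, of which 3 hold CAGAC (in Il1rap and Il1rn), 2 hold AGGTCA (in Il1rl1 and Il1rn) and 1 holds CACGTG. The Il1rn windows that hold CAGAC overlap each other and share the same site, so they are not separate finds. A match of letters is not a measured binding site.

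The ratio of decoy to signalling receptor, in CPM not divided by length, overlapped between the genotypes. It compares the groups and is not a ratio of transcript numbers. The ratio of Il1r2 CPM to Il1r1 CPM was 2.71, 2.16, 2.65, 1.54 and 2.90 in WT/mut replicates 6 to 10, against 2.66, 3.08, 2.32 and 1.91 in WT replicates 1, 3, 4 and 5. Means were 2.39 ± 0.55 in WT/mut and 2.49 ± 0.50 in WT cells, and the difference in mean log2 ratio was -0.07 (exact two-sided permutation p = 0.746). WT/mut replicate 9 had the lowest ratio of all 9 libraries, with the lowest Il1r2 and the highest Il1r1 value of its group.

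Marker genes of other cells were examined beside these values. The 18 genes of a neutrophil and myeloid list, cells known to carry Il1r2 and Il1rn, summed to 66.5 to 414 CPM in the WT/mut and 60.2 to 220 CPM in the WT libraries, overlapping ranges, and 11 of its 12 tested genes had a positive fold change. Among its neutrophil genes, Csf3r averaged 2.05 ± 0.950 CPM in the WT/mut and 0.840 ± 0.673 CPM in the WT cells, and Cxcr2 averaged 1.71 ± 0.843 CPM in the WT/mut and 1.21 ± 0.686 CPM in the WT cells (edgeR adjusted p = 0.457 and 0.724). S100a8 and S100a9 were at most 0.0902 and 0.110 CPM in any WT/mut library, and at most 0.145 and 0 CPM in any WT library. The regulatory T cell list summed to 2154 to 2682 CPM in the WT/mut and 2126 to 2833 CPM in the WT libraries, with 10 of 16 fold changes positive and 6 negative. The largest part of each sum was Izumo1r, at 788 to 1134 CPM in the WT/mut and 765 to 1251 CPM in the WT libraries. Foxp3 was a small part, so the sums do not measure regulatory T cell content. Foxp3, the defining gene of the list, had a log2 fold change of 0.36 ± 0.23 (SE, edgeR adjusted p = 0.529). Tnfrsf4, which encodes the costimulatory receptor OX40 and was named after its values were seen, had -0.46 ± 0.15 (edgeR adjusted p = 0.299) and ranges that did not overlap. It was 1 such gene of 16, against 4.46% of all tested genes in either direction. The epithelial list summed to 52.0 to 374 CPM in the WT/mut and 166 to 689 CPM in the WT libraries, overlapping ranges, with 10 of 13 tested fold changes negative (median -0.81). The stromal list summed to 302 to 349 CPM in the WT/mut and 302 to 329 CPM in the WT libraries. Most of each sum came from Pecam1 and Cr1l. Pecam1 was at 148 to 220 CPM in the WT/mut and 143 to 188 CPM in the WT libraries. Cr1l was at 122 to 143 CPM in the WT/mut and 122 to 165 CPM in the WT libraries. The other listed stromal genes were a small part, so the sums do not measure stromal cell content. EdgeR called 1 of the 7 tested stromal genes higher, Tek, an endothelial receptor gene (adjusted p = 0.0321). Tek had 252 counts over the WT/mut and 0 over the WT libraries. Of all tested genes, edgeR called 0.0322% higher. Mast cell and basophil genes summed to 0.0265 to 4.05 CPM in the WT/mut and 0 to 0.312 CPM in the WT libraries, and type 1 T cell genes to 58.5 to 111 CPM in the WT/mut and 56.0 to 116 CPM in the WT libraries. The part of these cells in the Il1r2 and Il1r1 values was not tested.

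Lists whose sums did separate the groups were those of type 17 and type 2 T cells, plasma cells and red cells. The type 17 list summed to 475 to 557 CPM in the WT/mut and 577 to 709 CPM in the WT libraries. All 10 of its tested genes had negative fold changes, 1 of them called by edgeR, Tmem176a, a membrane protein gene, at -0.94 ± 0.14 (SE, adjusted p = 0.0334), where edgeR called 0.0902% of all tested genes lower. The type 2 list summed to 166.5 to 207 CPM in the WT/mut and 140 to 166.1 CPM in the WT libraries, ranges that nearly touched, with 5 of 7 tested genes positive. Its cytokine gene Il4 had a log2 fold change of 0.78 ± 0.16 (SE, edgeR adjusted p = 0.106) and ranges that did not overlap. Il4 was 1 such gene of the 7 tested, against 4.46% of all tested genes in either direction. The plasma cell list summed to 764 to 1740 CPM in the WT/mut and 456 to 734 CPM in the WT libraries, with 8 of 11 tested genes positive. Its sum mixes unlike genes. Igha was at 155 to 657.5 CPM in the WT/mut and 13.7 to 86.5 CPM in the WT libraries. Xbp1 overlapped, at 172 to 212 CPM in the WT/mut and 171 to 242 CPM in the WT libraries. The red cell list summed to 401 to 870 CPM in the WT/mut and 98.5 to 282 CPM in the WT libraries, with 5 of 5 positive. B cell genes overlapped, at 261 to 599 CPM in the WT/mut and 127 to 336 CPM in the WT libraries, with 12 of 12 positive. The part of type 17, type 2, red and B cells in the Il1r2 and Il1r1 values was not tested. With the plasma cell level as a covariate the log2 fold change was -0.51 ± 0.20 (SE) for Il1r2 and -0.33 ± 0.30 for Il1r1, both with edgeR adjusted p = 1.00; since that level separates the groups, it and the genotype cannot be told apart.

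**Figure D2:**
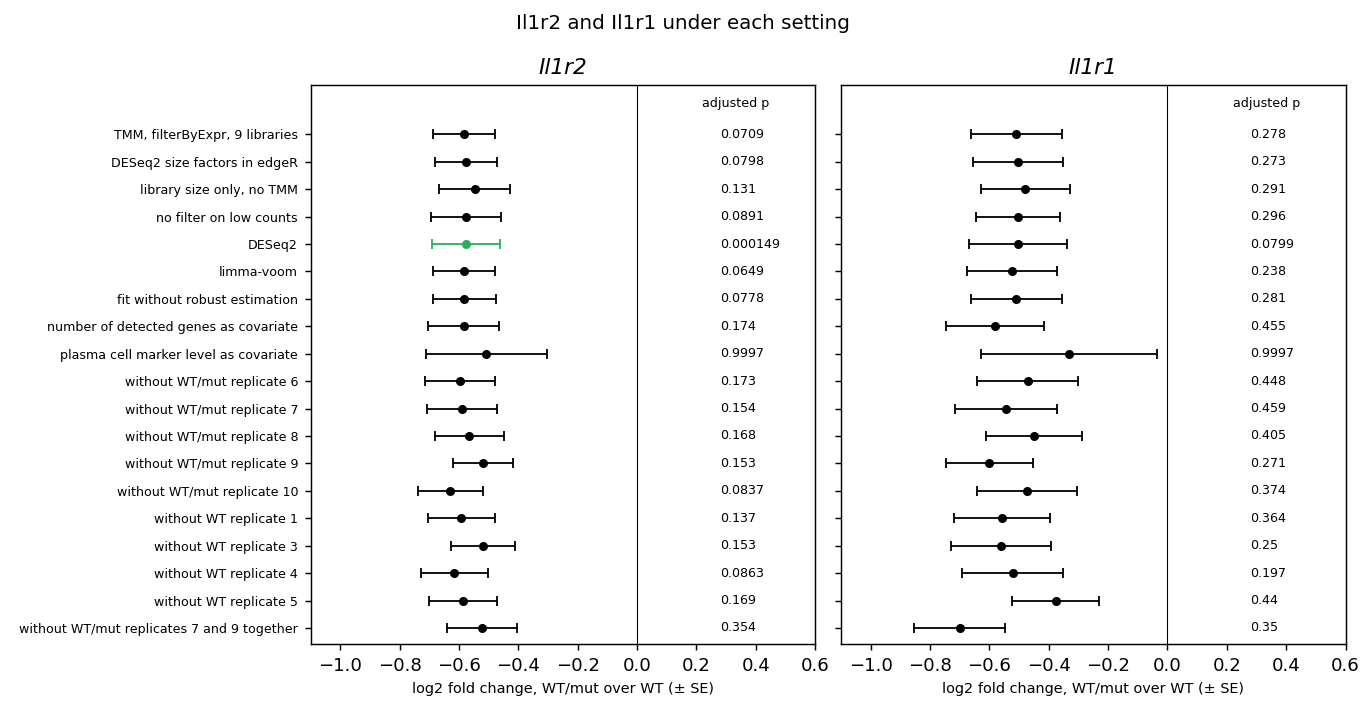
Log2 fold change, WT/mut over WT (x axis; point and ± SE), of Il1r2 (left) and Il1r1 (right) under each way of fitting the libraries, named down the page, with the adjusted p beside each; green marks an adjusted p under 0.05. All values lie under 0, and DESeq2 for Il1r2 (adjusted p 0.000149) is the only one past the threshold.

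Il1rap, the accessory chain shared by the IL-1, IL-33 and IL-36 receptors, had a fold change of the opposite sign. It was measured at 31.6, 33.4, 28.7, 33.6 and 32.2 CPM in WT/mut replicates 6 to 10, against 32.1, 19.4, 23.5 and 27.1 CPM in WT replicates 1, 3, 4 and 5. The WT/mut libraries were close together and above 3 of the 4 WT libraries, and WT replicate 1 lay among them. Means were 31.9 ± 1.96 CPM in the WT/mut and 25.5 ± 5.40 CPM in the WT cells. The log2 fold change of 0.32 ± 0.15 (SE) had an edgeR p of 0.0518, an adjusted p of 0.413 and, by exact two-sided permutation, a p of 0.0317. It was 0.21 to 0.46 when each library was left out in turn.

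Il1rn, the secreted antagonist of IL1R1, was measured at 16.5, 11.6, 7.93, 10.6 and 12.1 CPM in WT/mut replicates 6 to 10, against 11.7, 11.4, 6.11 and 10.9 CPM in WT replicates 1, 3, 4 and 5. The groups overlapped, with means of 11.8 ± 3.10 CPM in the WT/mut and 10.0 ± 2.62 CPM in the WT cells and a log2 fold change of 0.23 ± 0.25 (SE, edgeR adjusted p = 0.725). WT/mut replicate 6 had the highest value and WT replicate 4 the lowest, and the log2 fold change was 0.079 without that WT/mut library and 0.063 without that WT library.

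The IL-18 receptor was represented mainly by its ligand-binding chain. Il18r1 was at 2.98, 7.53, 2.12, 5.38 and 3.34 CPM in WT/mut replicates 6 to 10, against 7.69, 5.30, 9.08 and 5.89 CPM in WT replicates 1, 3, 4 and 5. WT/mut replicates 6, 8 and 10 lay below every WT library, and WT/mut replicates 7 and 9 within the WT range. Its log2 fold change was -0.71 ± 0.37 (SE; 95% interval -1.52 to 0.10; edgeR adjusted p = 0.455), and -1.02 without WT/mut replicate 7, the library with the most detected genes. WT/mut replicates 7 and 9 were also left out together, a choice made after the values were seen, for the most detected genes and the lowest total count. Without them it was -1.31, but they are also the WT/mut libraries highest in Il18r1, so that value is no separate support. Il18rap, the chain needed for IL-18 signalling, had 39, 0, 7, 48 and 31 counts in WT/mut replicates 6 to 10, against 16, 44, 17 and 1.99 counts in WT replicates 1, 3, 4 and 5. These are 0.783 ± 0.704 CPM in the WT/mut and 0.526 ± 0.413 CPM in the WT cells, where a floor of 3 counts stands for 0.0692 to 0.107 CPM depending on the library. The groups overlapped fully, and the log2 fold change of 0.57 ± 1.13 (SE, edgeR adjusted p = 0.862) leaves its direction undetermined at this depth.

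Il1rl1, the IL-33 receptor that marks type 2 lymphocytes and some regulatory T cells, was scarce as well. It had 73, 27, 29, 0 and 41 counts in WT/mut replicates 6 to 10, against 0, 148, 62 and 42 counts in WT replicates 1, 3, 4 and 5. One library of each group was at 0, and WT replicate 3 alone gave 148 of the 252 WT counts. The log2 fold change of -0.68 ± 1.19 (SE, edgeR adjusted p = 0.840) became 0.09 without WT replicate 3.

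A cluster on chromosome 1 holds 5 of the 9 members. Il1r2, Il1r1, Il1rl1, Il18r1 and Il18rap, lie in that order among 6 receptor genes at chr1:40074079-40551705 (GENCODE M21 on GRCm38), all on the plus strand, over 477.6 kb. The sixth gene is Il1rl2, the IL-36 receptor, between Il1r1 and Il1rl1. Il1rl2 was at 9.50, 11.9, 6.84, 4.99 and 4.30 CPM in WT/mut replicates 6 to 10, against 9.34, 13.0, 14.1 and 5.86 CPM in WT replicates 1, 3, 4 and 5, overlapping groups with a log2 fold change of -0.49 ± 0.35 (SE, edgeR adjusted p = 0.562). Thus 5 of the 6 cluster genes had a negative fold change and Il18rap a positive one, none of them called by edgeR. Levels per length differed across the cluster far more than between genotypes, from the Il1r2 level down to 0.116 ± 0.104 CPM per kb in WT/mut and 0.0778 ± 0.0611 in WT cells for Il18rap. Il1rl1, whose end is 136 bases from the start of Il18r1, had 0.143 ± 0.115 CPM per kb in WT/mut and 0.229 ± 0.218 in WT cells, below Il18r1 in every library.

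**Figure D3:**
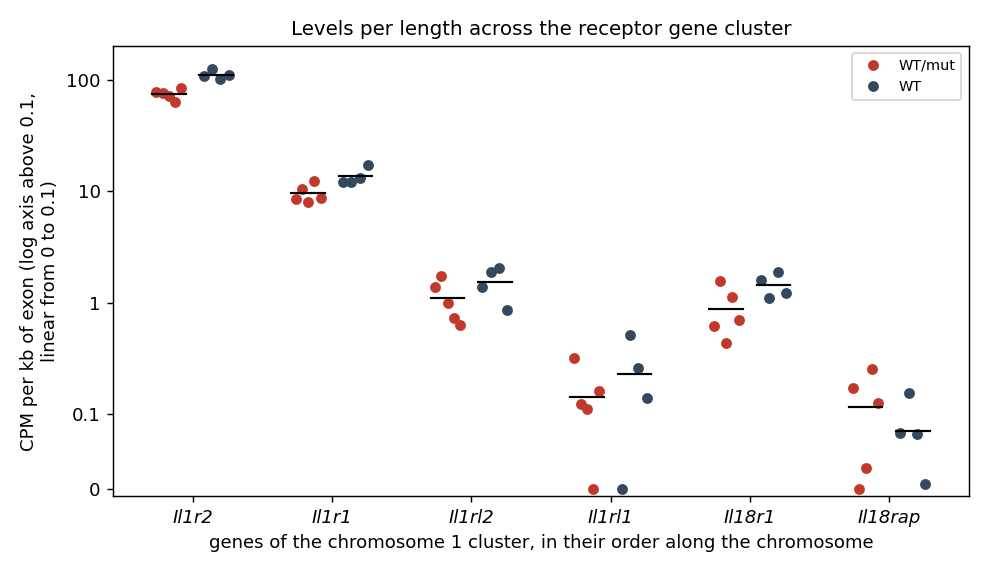
Level per length (y axis, CPM per kb of exon, log scale above 0.1 and linear from 0 to 0.1) of the 6 genes of the chromosome 1 cluster, in their order along the chromosome (x axis), in WT/mut and WT libraries; points are libraries and lines are group means. Il1r2 and Il1r1 stand above the other 4 genes in every library, and Il1rl1 and Il18rap have libraries at 0 or close to it.

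Sigirr, an inhibitory receptor of the family, lies on chromosome 7. It was measured at 195, 189, 223, 140 and 213 CPM in WT/mut replicates 6 to 10, against 249, 192, 178 and 176 CPM in WT replicates 1, 3, 4 and 5. Its means of 192 ± 31.8 CPM in the WT/mut and 199 ± 34.5 CPM in the WT cells differed by a log2 fold change of -0.05 ± 0.15 (SE; 95% interval -0.38 to 0.28; edgeR adjusted p = 0.916). The highest library was a WT one and the lowest a WT/mut one, and the sign turned without either of them.

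Myd88, the adaptor through which all signalling members act, lies on chromosome 9. It was measured at 129, 114, 126, 103 and 143 CPM in WT/mut replicates 6 to 10, against 155, 136, 107 and 115 CPM in WT replicates 1, 3, 4 and 5. The groups overlapped almost fully, and the log2 fold change of -0.06 ± 0.13 (SE; 95% interval -0.35 to 0.23) had an edgeR adjusted p of 0.871. An exon of Myd88 overlaps Acaa1a, a peroxisomal thiolase gene on the opposite strand with 19398 counts over the WT/mut and 14515 over the WT libraries, and with no strand mark part of the reads in the overlap may be assigned to either gene. The intervals of Sigirr and Myd88 bound the differences these libraries could have hidden; they do not show that the levels are equal.

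As a family, 3 members had a positive and 6 a negative fold change. Their median on the log2 scale was -0.06, against 0.0015 over all 15521 tested genes. EdgeR called 0 of the 9 at an adjusted p under 0.05, where it called 0.122% of all tested genes (19 genes), 0.0322% as higher and 0.0902% as lower in WT/mut. At an unadjusted edgeR p under 0.05 there were 2 members, Il1r1 and Il1r2, both lower, against 6.46% of all tested genes lower, 5.69% higher and 12.2% in either direction. DESeq2 called 1 member, Il1r2, as lower in WT/mut, against 1.86% of all genes it gave an adjusted p and 0.873% called lower, and limma-voom called 0. CPM ranges did not overlap for 1 member, Il1r2, against 4.46% of all tested genes in either direction 2.38% with WT/mut lower and 2.09% with WT/mut higher.

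**Figure D4:**
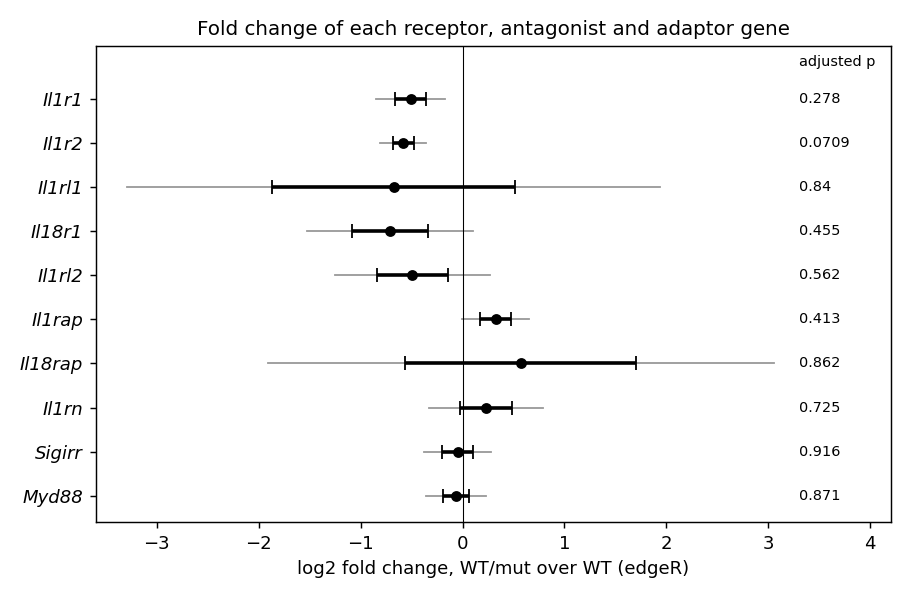
Log2 fold change, WT/mut over WT (x axis), of the 9 family genes and of Il1rl2, with ± SE as thick bars, 95% intervals as thin lines and the edgeR adjusted p at the right. The intervals of Il1r1 and Il1r2 lie below 0 before adjustment, those of Il1rl1 and Il18rap are the widest, and no adjusted p is under 0.05.

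The rest of the pathway was described from lists of ligands and other receptors, of the machinery that releases IL-1 and IL-18, of signalling steps, of NF-κB inhibitors and targets, and of Toll-like receptors and TIR adaptors. Of 76 listed genes, 75 were in the table and 63 were tested; 30 had a positive and 33 a negative fold change, with a median of -0.01. EdgeR called 0 of them in either direction. At an unadjusted p under 0.05 there were 3 higher and 5 lower, against 12.2% of all tested genes in either direction, a share near that of the 8 in 63. Ranges did not overlap for 4 of the 63, all lower in WT/mut, against 4.46% of all tested genes in either direction and 2.38% lower.

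The ligand genes had few counts in these libraries. Il1b had 61, 34, 65, 4 and 0 counts in WT/mut replicates 6 to 10, against 0, 27, 16 and 0 counts in WT replicates 1, 3, 4 and 5, a log2 fold change of 1.76 ± 1.48 (SE, edgeR adjusted p = 0.631). Il1a had 19, 0, 0, 17 and 0 counts in WT/mut and 0 in all WT libraries, and was not tested. Both genes thus had 0 counts in libraries of each group. Il18 averaged 1.06 ± 0.738 CPM in the WT/mut and 1.64 ± 1.48 CPM in the WT cells (edgeR adjusted p = 0.743), and Il33 averaged 0.254 ± 0.339 CPM in the WT/mut and 0.827 ± 0.860 CPM in the WT cells (edgeR adjusted p = 0.617). Il18bp, the secreted protein that neutralises IL-18, averaged 3.35 ± 0.499 CPM in the WT/mut and 2.45 ± 0.733 CPM in the WT cells (edgeR adjusted p = 0.556). Of the 5 ligand and receptor genes tested, 2 had positive and 3 negative fold changes.

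Of the release machinery, 5 of 7 tested genes had positive fold changes (median 0.14). Casp4, the caspase 11 gene of the noncanonical inflammasome, averaged 21.5 ± 3.76 CPM in the WT/mut and 15.8 ± 5.05 CPM in the WT cells, with a log2 fold change of 0.45 ± 0.22 (SE, edgeR adjusted p = 0.432). Nlrc4, an inflammasome subunit, had the same log2 fold change of 0.45 ± 0.27 (SE, edgeR adjusted p = 0.503). Of the signalling genes, 9 of 26 were positive and 17 negative (median -0.07). Peli1, a ubiquitin ligase that acts with IRAK kinases, averaged 337 ± 39.6 CPM in the WT/mut and 449.9 ± 149.6 CPM in the WT cells (log2 fold change -0.42 ± 0.19, edgeR adjusted p = 0.414), and Irak2, a kinase of the complex, averaged 30.9 ± 4.75 CPM in the WT/mut and 24.8 ± 4.68 CPM in the WT cells (0.32 ± 0.16, edgeR adjusted p = 0.451).

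NF-κB inhibitors and targets had 2 higher and 4 lower of 15 genes at an unadjusted p under 0.05, against 5.69% higher and 6.46% lower of all tested genes. Nfkbie and Nfkbid encode proteins of the IκB family, which bind NF-κB. Nfkbie was at 85.7 to 99.7 CPM in the WT/mut and 105 to 116 CPM in the WT libraries, and Nfkbid at 105 to 148 CPM in the WT/mut and 151 to 173 CPM in the WT libraries. Neither pair of ranges overlapped, so for 2 of the 15 genes, against 4.46% of all tested genes in either direction and 2.38% lower. The log2 fold changes were -0.28 ± 0.09 and -0.31 ± 0.11 (SE), with edgeR adjusted p of 0.291 and 0.329. The other 4, named after their values were seen, were Nfkbib (-0.38) and Bcl3 (-0.33), further IκB family genes, and Nfkbiz (0.36) and Tnfaip3 (0.27), which encode an IκB protein induced by IL-1 and the A20 enzyme that curbs NF-κB. Their edgeR adjusted p-values lay between 0.350 and 0.385, with 7 of the 15 fold changes positive and 8 negative (median -0.04).

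Among other TIR receptors and adaptors, 7 of 10 tested genes had positive fold changes (median 0.30). Tlr4, the receptor for bacterial lipopolysaccharide, averaged 9.21 ± 3.11 CPM in the WT/mut and 5.13 ± 1.44 CPM in the WT cells (log2 fold change 0.84 ± 0.29, edgeR adjusted p = 0.321). Tlr2, the receptor for bacterial lipoproteins, averaged 5.60 ± 0.568 CPM in the WT/mut and 8.79 ± 2.42 CPM in the WT cells (-0.65 ± 0.23, edgeR adjusted p = 0.327), and its ranges did not overlap. The ranges of the TLR4 adaptor gene Ticam2, named after its values were seen, did not overlap either, at 0.377 to 1.74 CPM in the WT/mut and 1.97 to 2.86 CPM in the WT libraries (edgeR adjusted p = 0.435). Tlr2 and Ticam2 were 2 of the 10 tested genes, against 4.46% of all tested genes without overlap in either direction and 2.38% lower. Myeloid cells, which carry both Toll-like receptors, had the overlapping marker sums given above, and their part in these values was not tested.

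**Figure D5:**
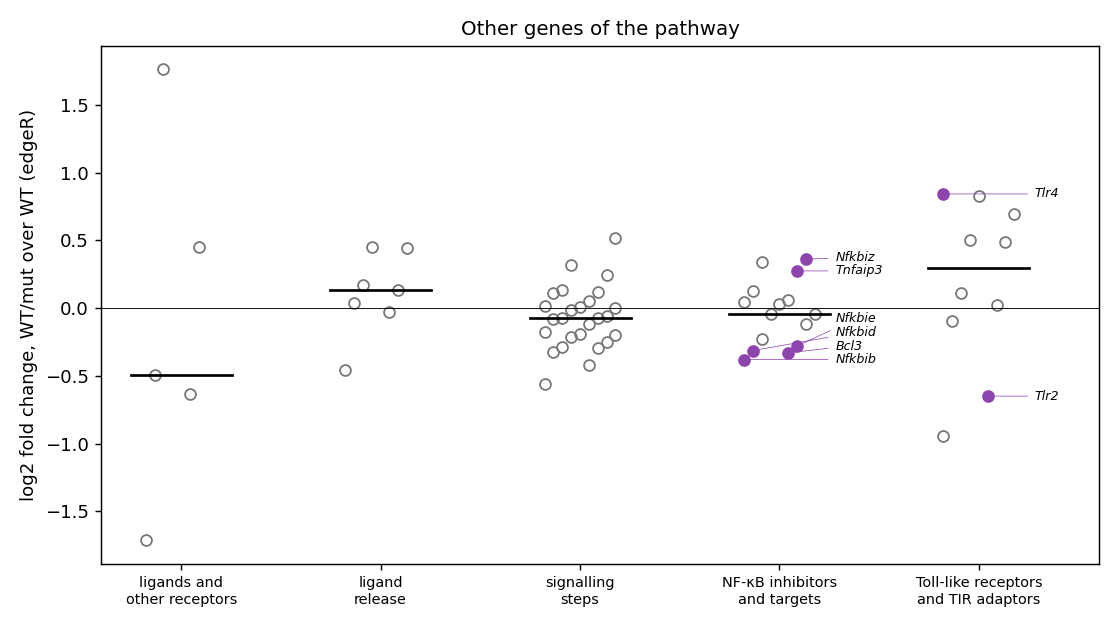
Log2 fold change, WT/mut over WT (y axis, edgeR), of the 63 tested pathway genes outside the family, grouped by list (x axis); circles are genes, lines are list medians, and filled circles with names have an unadjusted p under 0.05. Of the 8 named genes, 3 are above 0 and 5 below, and 6 of them are NF-κB inhibitors and targets.

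The genes whose pattern over the 9 libraries was most like that of Il1r2, by the root mean square difference of log2 CPM centred on each gene's own mean, were Klhl5 (0.132), Pecr (0.133) and Rasl11a (0.136). For Il1r1 they were Tesk2 (0.124), Tob1 (0.126) and the clone-named gene RP23-389F23.3 (0.129). Neither receptor gene was among the 3 most like the other. These distances are descriptions over 9 libraries that share their depth and composition, with no test.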

How the data were processed

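Values are expected counts per gene as deposited, made by the authors with cutadapt 2.10, STAR 2.5.3, RSEM 1.3.0 and the mm10 build, per the submitters' processing notes, which also name DESeq2. Per the labels' protocols, libraries were made from 300 pg of RNA with a SMART-Seq kit that does not mark strand. Between 11.1% and 18.3% of values per library were not whole, and all were rounded before testing. Replicate libraries differed beyond sampling noise in every case (16 pairs, mean chi-square per gene 26.6 to 206).

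Members and gene lists were chosen with earlier results of these data known. EdgeR 4.0.16 (R 4.3.3; quasi-likelihood F test, robust, TMM, no covariate) was fitted to the 15521 genes passing filterByExpr (minimum count 10, total 15), with Benjamini-Hochberg adjustment over all of them and a threshold of 0.05. The SE is taken as |log2 fold change| over the root of F. CPM values use TMM-scaled library sizes. The 10 exact permutation tests used log2(CPM + 0.5), and their p-values are not adjusted. Floors cover counting error only, since the kit adds no molecular identifiers. Levels per length divide CPM by union exon length in GENCODE M21 (GRCm38), chosen here because the authors' annotation release was not stated, where 54079 of the 54146 identifiers were found. Older symbols were matched through the RefSeq gene table.

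Named were all members, any called pathway gene, the 2 pathway genes of lowest p in each list, the ligands Il1a, Il1b, Il18 and Il33, the 3 genes most like each of the 2 members of lowest p, and leading or defining markers. Alternatives were DESeq2 1.42.0, limma-voom (limma 3.58.1), other size factors, no filter, a non-robust fit, 2 covariates, and leaving out each library. The fit was also run on simulated counts with known fold changes in genes above a minimum level. Il1rl1 and Il18rap lie below that level, and the run is not used as support for any result here.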

Additional observations from a re-analysis of the deposited data

Results flagged for a closer look

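Groups of 4 and 5 libraries were screened for a library far from the rest of its group, for 26 groups of values in all; chance flags about 1 in 20 such groups. Il1rn, the IL-1 receptor antagonist gene, was at 6.11 CPM in WT replicate 4, far below the other WT libraries at 10.9 to 11.7 CPM. The number of genes with a count was 30225 in WT/mut replicate 7, far above the other WT/mut libraries at 19179 to 20342; without that library the log2 fold changes of Il1r2 and Il1r1 were -0.59 and -0.54, and neither was called by edgeR.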

How the results depend on the processing

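No paired analysis was possible because the groups share no replicate number. Il1r2, Il1r1, Il1rap, Il1rn, Il18r1 and Il18rap kept their sign under all 18 alternatives. The permutation tests and leaving out WT/mut replicates 7 and 9 together were chosen after seeing the data. The edgeR count of 19 called genes was 288 with DESeq2, 1 with the number of detected genes as covariate, 0 with the plasma cell level as covariate (466 at an unadjusted p under 0.05), 1 without WT/mut replicates 7 and 9 together, and 2 to 23 without single libraries. Family members called were 0 throughout except 1, Il1r2, with DESeq2. Leaving out single libraries put the log2 fold change of Il1r2 between -0.63 and -0.52 (edgeR adjusted p 0.0837 to 0.173) and that of Il1r1 between -0.60 and -0.38. Members with ranges that did not overlap numbered 2 with no filter (Il1r1 and Il1r2), 3 without WT/mut replicates 7 and 9 together (with Il18r1), and 1 to 3 without single libraries (with Il1r1 without WT/mut replicate 9, and with Il1r1 and Il1rap without WT replicate 1). The share over all tested genes is known only for the fit of all 9 libraries with the filter. Ranges of any gene separate more easily with fewer libraries, so the higher counts are no added support. Signs reversed for Il1rl1 (0.094 without WT replicate 3, -1.20 to 0.094 over single libraries left out), for Sigirr (0.055 without WT/mut replicate 9, 0.084 without WT replicate 1, 0.081 without WT/mut replicates 7 and 9, -0.11 to 0.084 over single libraries) and for Myd88 (0.11 with the plasma cell covariate, 0.0046 without WT/mut replicate 9, 0.045 without WT replicate 1, 0.046 without WT/mut replicates 7 and 9, -0.13 to 0.045 over single libraries). The cause was not tested. Il1rl1 and Il18rap have too few counts for a direction.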
